A study of Mus musculus with 12 samples.

Results

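Inhibitory checkpoint receptors and ligands were represented by 10 named genes among the 38924 gene IDs counted. They comprised 7 receptors (Lag3, Pdcd1, Ctla4, Tigit, Havcr2, Btla and Cd160) and 3 ligands (Cd274, Pdcd1lg2 and Cd200). The genes were taken by name, by their function as checkpoints, and 10 of 10 were found and passed the filter on low counts. RNA sequencing covered 12 libraries, with 3 for each of 4 groups of splenic CD4+ T cells. The T cells came from WT C57BL/6 mice or from STINGgt/gt mice, which the labels call STING KO and which carry a missense allele of Tmem173 that leaves no functional STING protein. They had been sorted as naive cells, expanded with antibodies to CD3 and CD28 and rested. All 4 groups shared that activation, so cells with DMSO were not resting naive cells. For 16 h they were then exposed either to the solvent DMSO or to CMA (10-carboxymethyl-9-acridanone), which binds and activates mouse STING. The mutation is in the germline and was not limited to T cells. The study calls its samples biological replicates, while the labels only number them, so the p-values given here measure the spread between these libraries.

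Checkpoint receptors sit on the surface of lymphocytes and dampen signals from the T cell receptor or from costimulators when they meet their ligands. Activation of a T cell induces several of them, which limits the response, and persistent expression of many together marks exhausted T cells in chronic infection and tumours. Ligands such as PD-L1 are carried by antigen-presenting cells, by many tissue cells after exposure to interferon, and by activated T cells themselves. STING is an adaptor for cytosolic DNA sensing whose activation leads to type I interferon production.

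Each library held 27414450 to 43784910 reads on genes, and no library pair within a group agreed within counting noise (chi-square per degree of freedom 2.64 to 29.98, the highest between WT DMSO libraries 2 and 3). Levels of a gene are given as CPM, counts relative to the TMM-scaled library size. Tmem173 read 183 to 190 CPM in WT and 168 to 181 CPM in STINGgt/gt T cells with DMSO, and 296 to 316 and 169 to 184 CPM with CMA. A missense allele need not alter mRNA abundance, so this did not check the genotype labels. The summed CPM of 7 T cell markers (Cd3d, Cd3e, Cd3g, Cd4, Cd5, Cd2 and Thy1) was 2248 to 2292 in WT with CMA and 2375 to 2578 in the other 9 libraries. With CMA in WT, 4 of the 7 were lower, among them Cd3e (252 against 160 CPM), and Cd4 was higher. Of all genes tested, 37.4% were lower and 33.0% higher in that comparison (adjusted p under 0.05, edgeR). Markers of B cells, myeloid cells, CD8 T cells and natural killer cells, which a sort for naive CD4+ T cells should remove, were also read. They differed between groups. The summed CPM of 6 B cell markers was 253 to 266 in WT with DMSO, 350 to 378 in WT with CMA, and 114 to 122 in STINGgt/gt T cells. That of 6 markers of CD8 T cells and natural killer cells was 88.4 to 105 in WT with DMSO, 46.1 to 49.2 in WT with CMA, and 28.9 to 31.8 in STINGgt/gt T cells. That of 8 myeloid and dendritic markers was 55.1 to 58.7, 72.1 to 78.8 and 36.4 to 40.5 in the same order. Its members were divided with CMA in WT, where Cst3 and Flt3 were higher and Lyz2 (3.25 against 1.16 CPM), Itgam (3.31 against 1.02 CPM) and Itgax (1.23 against 0.387 CPM) were lower. Foxp3, the defining factor of regulatory T cells, had group means of 1.31 to 1.45 CPM. In bulk RNA, fewer cells of a type and less RNA per cell cannot be told apart.

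The sequences just upstream of Cd274 and Pdcd1lg2 are shown because these genes lie next to each other on chromosome 19, 22.8 kb apart, encode the 2 ligands of PD-1 and differed in opposite directions with CMA in WT T cells. A sequence before 1 Cd160 start site, which lies inside the annotated gene, is shown because Cd160 had the largest decrease of the 10 genes. Each line gives the 250 bases before a RefSeq start site in build GRCm38.p6, 5′ to 3′ on the strand of the gene. They are chr19:29367188-29367437 (plus strand) for Cd274, chr19:29410669-29410918 (plus strand) for Pdcd1lg2, and chr3:96814522-96814771 (minus strand) for 1 of the 2 Cd160 start sites in that table. Capitals mark matches to any of 5 motifs searched on both strands.
Cd274: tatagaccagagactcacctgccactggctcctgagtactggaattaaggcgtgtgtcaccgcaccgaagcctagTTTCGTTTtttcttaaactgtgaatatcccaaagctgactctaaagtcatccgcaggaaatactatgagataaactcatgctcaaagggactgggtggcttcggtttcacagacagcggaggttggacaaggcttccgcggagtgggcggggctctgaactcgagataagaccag
Pdcd1lg2: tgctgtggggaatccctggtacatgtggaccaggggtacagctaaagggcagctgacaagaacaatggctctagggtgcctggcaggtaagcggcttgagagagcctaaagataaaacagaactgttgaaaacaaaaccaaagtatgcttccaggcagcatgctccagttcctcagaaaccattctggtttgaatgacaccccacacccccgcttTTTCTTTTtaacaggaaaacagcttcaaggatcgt
Cd160: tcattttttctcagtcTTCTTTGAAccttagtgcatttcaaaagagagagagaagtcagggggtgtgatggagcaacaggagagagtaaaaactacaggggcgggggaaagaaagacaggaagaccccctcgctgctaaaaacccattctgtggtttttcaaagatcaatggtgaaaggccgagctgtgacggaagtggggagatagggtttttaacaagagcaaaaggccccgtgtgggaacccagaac

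The capitals in the Cd274 and Pdcd1lg2 sequences are matches to the interferon regulatory factor core AANNGAAA on the reverse strand, at 175 to 168 and at 35 to 28 bases before the start site. The capitals in Cd160 are a gamma-activated site, TTCNNNGAA. The core motif was in 4 of the 10 member windows, which covered 9 members since Lag3 was not in the table, and in 21.3% of all 32851 promoter windows of the same length. The others with a match were Pdcd1 and Cd200. The gamma-activated site was in 1 member window and in 7.02% of all windows. An AP-1 site, TGANTCA, was in the Havcr2 window alone among members and in 6.75% of all. The interferon-stimulated response element, GAAA followed after 2 bases by GAAA and thus including the core motif, was in no member window and in 2.98% of all windows. The κB motif, GGGA followed after 2 bases by TTCC, was in no member window and in 1.21% of all. A match says only that these letters are present, and the same core motif stood before Cd274, which was higher with CMA, and before Pdcd1lg2 and Pdcd1, which were lower.

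Per length of transcript, the abundance of the checkpoint mRNAs spanned more than 2 orders of magnitude. RPKM, the CPM per kilobase of exon, was used for these comparisons between genes. In WT T cells with DMSO the order was Ctla4 (201 RPKM), Cd200 (107), Lag3 (93.0), Btla (68.7), Tigit (50.6), Cd274 (35.5), Pdcd1 (18.5), Pdcd1lg2 (13.7), Cd160 (0.743) and Havcr2 (0.538). No neighbours in that order had overlapping library ranges. With CMA, Lag3 was in first place in WT at 421 RPKM, ahead of Ctla4 at 178 RPKM and Cd200 at 117 RPKM, and Havcr2 (0.452 RPKM) stood above Cd160 (0.197 RPKM). STINGgt/gt T cells kept Ctla4, Cd200, Lag3 and Btla as the 4 most abundant with either treatment, and Cd274 stood above Tigit there. The only neighbours whose ranges overlapped were Tigit (27.2 RPKM) and Pdcd1 (26.3 RPKM) in STINGgt/gt T cells with CMA. The order in each group was the same with the length of the longest transcript in place of all exons.

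Summed over the 10 genes, the level was 589 ± 12.5 RPKM (SD, n = 3) in WT with DMSO and 941 ± 24.4 RPKM with CMA. The corresponding STINGgt/gt sums were 510 ± 4.72 and 526 ± 11.8 RPKM. Lag3 made up 15.8% of that sum in WT with DMSO and 44.8% with CMA, against 15.8% and 16.6% in STINGgt/gt T cells. Ctla4 took 34.1% of the WT sum with DMSO and 18.9% with CMA, and its STINGgt/gt shares were 28.5% and 26.9%. The ratio of Lag3 to Ctla4 was 0.451, 0.492 and 0.444 in the WT libraries with DMSO and 2.34, 2.42 and 2.35 with CMA, while in STINGgt/gt T cells it stayed between 0.527 and 0.630.

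**Figure D1:**
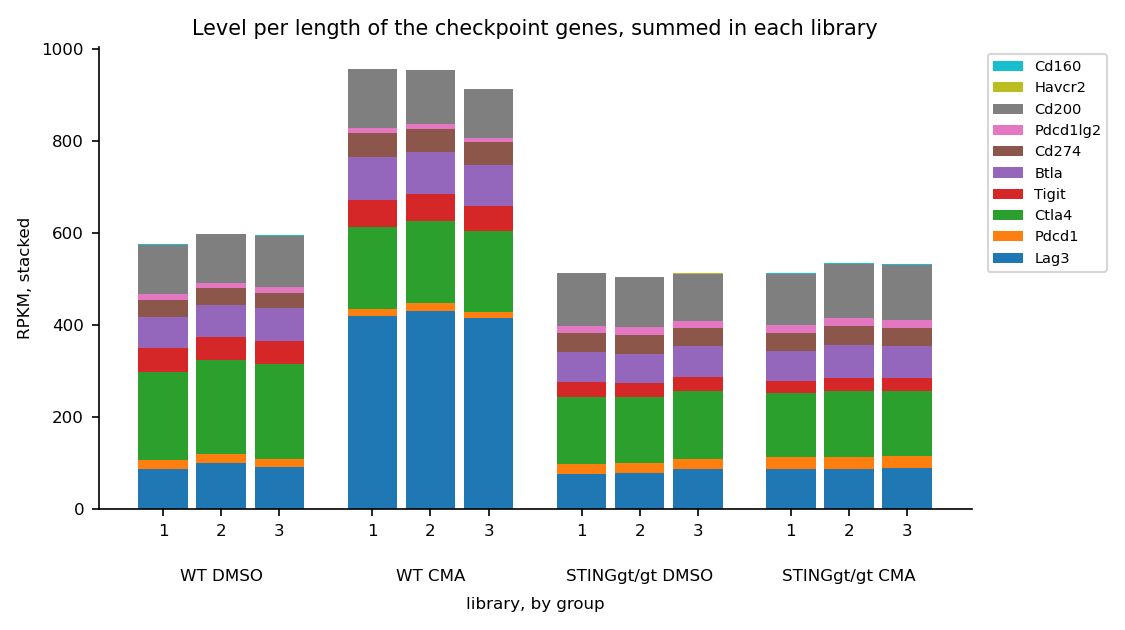
Level per length (RPKM, vertical axis) of the 10 checkpoint genes stacked in each of the 12 libraries, 3 per group. The WT CMA libraries reach 913 to 956 RPKM in all, with Lag3 as the largest block, and the other 9 libraries lie between 505 and 598 RPKM.

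CMA against DMSO in WT T cells asked how these mRNAs differed after 16 h of CMA in cultures with functional STING. The study reports that overnight CMA led to apoptosis in WT but not in STINGgt/gt T cells. The share of dying cells in these libraries is not given, and its part in the values was not tested. Of the 10 genes, 4 were higher (Lag3, Cd274, Btla and Tigit) and 4 were lower (Cd160, Pdcd1lg2, Pdcd1 and Ctla4), with an adjusted p under 0.05 in edgeR's test. Havcr2 and Cd200 did not pass. Calls were widespread in this comparison, at 33.0% of all 13811 genes tested in the higher direction and 37.4% in the lower, together 70.4%. The groups did not overlap for 9 of the 10 genes, against 71.1% of all genes. A change of at least 2-fold was reached by Lag3 in the higher direction, where 9.32% of all genes were called, and by Cd160 in the lower direction, where 7.68% were. The median log2 fold change was -0.03 over the 10 genes and -0.04 over all genes, and the median absolute value was 0.35 and 0.39. The STINGgt/gt comparison shares no library with the WT one, but all comparisons share a common estimate of the spread from the 12 libraries. The adjusted p in STINGgt/gt T cells thus also depends on the WT libraries. Both genotype comparisons and the difference of the effects reuse the libraries of these 2 comparisons.

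Without functional STING, no checkpoint gene passed the threshold with CMA in edgeR's test, where 1.32% of all genes did (0.398% in the higher and 0.920% in the lower direction). At an unadjusted p under 0.05 there were 3 (Pdcd1, Havcr2 and Tigit), and 1790 of all genes. DESeq2 and limma-voom each called 1 of the 10 higher, Pdcd1, and none lower. The groups did not overlap for 5 of the 10 genes, against 23.1% of all. The difference of the CMA effect between genotypes passed for 8 of 10 genes, 4 higher and 4 lower in WT and the same 8 as in WT alone. The background was 27.2% of all genes in the higher direction and 31.6% in the lower, 58.8% in all. At least a 2-fold difference was reached by Lag3, against 8.70% of all genes in the higher direction, and by Cd160, against 7.30% in the lower.

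**Figure D2:**
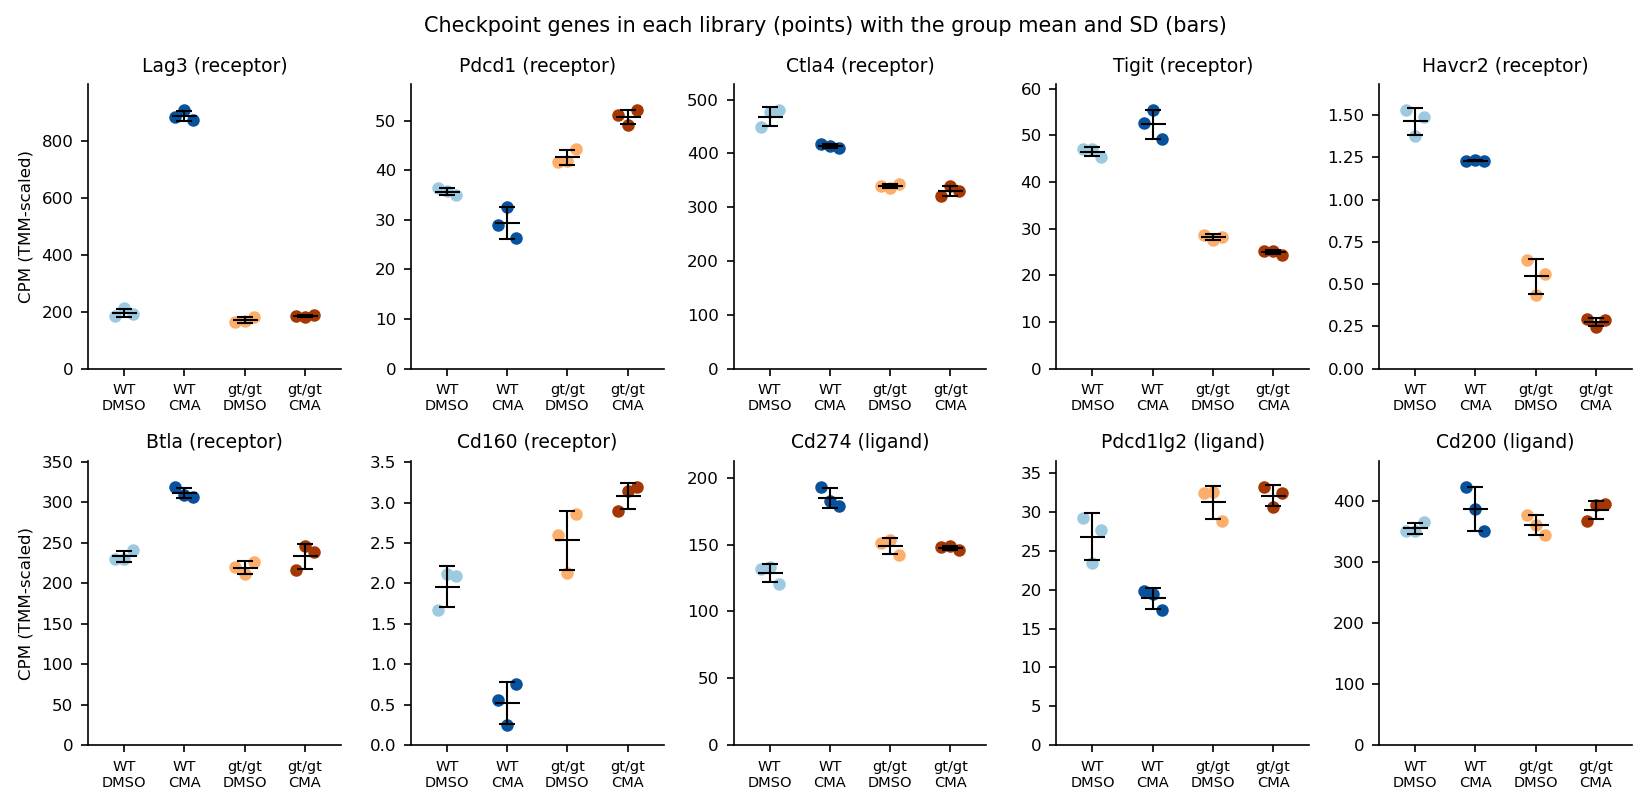
CPM scaled by TMM (vertical axes, each from 0) of the 10 checkpoint genes in WT and STINGgt/gt T cells (gt/gt) with DMSO or CMA. Points are single libraries, horizontal bars the group mean and whiskers the SD of 3 libraries. Lag3 lies at 874 to 908 CPM in WT with CMA and at 162 to 212 CPM in the other 9 libraries.

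**Figure D3:**
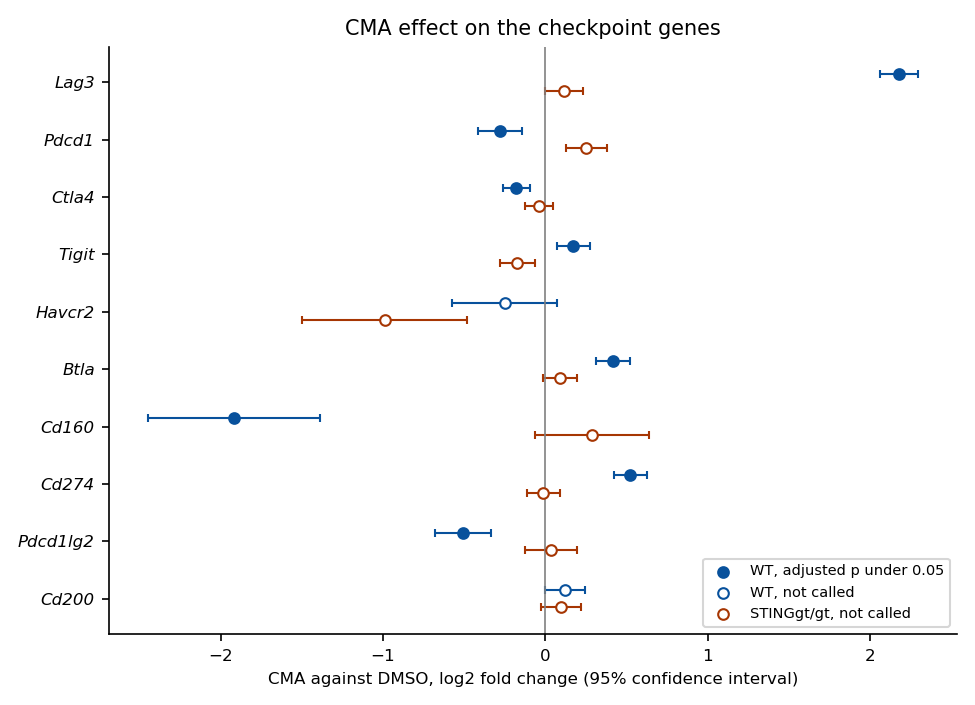
Log2 fold change of CMA against DMSO (horizontal axis) with its 95% confidence interval in edgeR's model, for WT (blue) and STINGgt/gt T cells (brown). Filled points have an adjusted p under 0.05. Lag3 at 2.18 and Cd160 at -1.92 in WT stand farthest from 0, and all STINGgt/gt points are open.

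Lag3 (ENSMUSG00000030124, chr6:124904361-124911705, minus strand), a CD4-related receptor that binds MHC class II, had the strongest upregulation. Its CPM values were 183, 212 and 193 in WT with DMSO and 884, 908 and 874 with CMA. The STINGgt/gt libraries gave 162, 166 and 183 CPM with the solvent, and 183, 183 and 187 CPM after CMA. All 3 WT libraries with CMA lay far above every other library. The log2 fold change was 2.18 ± 0.06 (SE) in WT, a 4.53-fold higher level (adjusted p = 6.66e-15, edgeR), which placed Lag3 at rank 400 by fold among the 4560 genes that were higher. The STINGgt/gt value was 0.11 ± 0.05 (adjusted p = 0.395). The effects differed by 2.07 ± 0.08 on the log2 scale (adjusted p = 2.49e-12). WT exceeded STINGgt/gt T cells by 0.20 with DMSO (adjusted p = 0.00709) and by 2.27 with CMA (adjusted p = 3.36e-15). These calls held in every alternative fit, except that the DMSO difference lies below a 2-fold minimum.

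Pdcd1 (ENSMUSG00000026285, chr1:94038307-94052553, minus strand) encodes PD-1, which recruits the phosphatase SHP-2 when it meets PD-L1 or PD-L2. It read 36.4, 35.8 and 35.0 CPM in WT with DMSO and 29.0, 32.7 and 26.4 with CMA. The STINGgt/gt libraries read 41.7, 41.9 and 44.4 CPM with DMSO and 51.1, 49.2 and 52.1 with CMA. The 4 groups did not overlap, with WT CMA lowest and STINGgt/gt CMA highest. Pdcd1 fell by 0.28 ± 0.06 on the log2 scale in WT (adjusted p = 0.000875, edgeR). Without functional STING the log2 value was 0.25 ± 0.06 with an adjusted p of 0.05001, just above the threshold. With the replicate number as a block, the adjusted p there was 0.0175 (edgeR), and with a block by the library names in the labels, which do not pair library 2 of the STINGgt/gt groups, it was 0.159. Without WT DMSO library 2 or 3 it was 0.0148 or 0.0162, and without WT CMA library 2 or 3 it was 0.0237 or 0.0273. The difference of the effects was -0.53 ± 0.09 (adjusted p = 6.72e-05). Pdcd1 was lower in WT than in STINGgt/gt T cells with DMSO (log2 -0.26, adjusted p = 0.00316) and with CMA (log2 -0.79, adjusted p = 5.65e-09).

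Ctla4 (ENSMUSG00000026011, chr1:60887000-60915832, plus strand) encodes CTLA-4, which competes with CD28 for CD80 and CD86. It was the most abundant checkpoint mRNA per length with DMSO. Its CPM values were 448, 476 and 480 in WT with DMSO and 417, 414 and 410 with CMA, whereas the STINGgt/gt libraries gave 339, 335 and 343, and then 322, 339 and 330. Both WT groups lay above both STINGgt/gt groups. Ctla4 fell by 0.18 ± 0.04 in WT (adjusted p = 0.000705, edgeR). The STINGgt/gt log2 value was -0.04 ± 0.04 (adjusted p = 0.742). The difference of the effects was small, at -0.14 ± 0.06 (adjusted p = 0.0413), and was lost in 16 of 21 alternatives, among them DESeq2 (adjusted p = 0.0586). Leaving out any single library other than WT DMSO 1 or STINGgt/gt CMA 1 also lost it (adjusted p 0.0532 to 0.133). The genotypes differed by 0.47 with DMSO (adjusted p = 9.49e-08) and by 0.33 with CMA (adjusted p = 1.29e-06), with WT higher.

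Tigit (ENSMUSG00000071552, chr16:43648861-43664184, minus strand), a receptor for CD155 that counteracts the costimulator CD226, differed mainly by genotype. It read 47.0, 47.0 and 45.4 CPM in WT with DMSO and 52.7, 55.3 and 49.1 with CMA. The STINGgt/gt libraries read 28.7, 27.5 and 28.2 CPM, and 25.3, 25.2 and 24.4 with CMA. No 2 groups overlapped. WT exceeded STINGgt/gt T cells by 0.72 ± 0.05 (log2) with DMSO (adjusted p = 7.99e-09, edgeR) and by 1.07 ± 0.05 with CMA (adjusted p = 6.60e-12). Tigit rose by 0.17 ± 0.05 in WT (adjusted p = 0.00440), while the STINGgt/gt value was -0.17 ± 0.05 (adjusted p = 0.129, and 0.0408 when only those 6 libraries were fitted). The effects differed by 0.34 (adjusted p = 0.000504).

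Havcr2 (ENSMUSG00000020399, chr11:46454935-46481255, plus strand) encodes TIM-3, a receptor of T helper 1 cells, and was near the limit of these data. Its counts were 39 to 61 in the WT libraries and 11 to 25 in the STINGgt/gt libraries. The CPM values were 1.53, 1.38 and 1.49 in WT with DMSO, and 1.23 in each WT library with CMA. Those of STINGgt/gt libraries were 0.644, 0.438 and 0.560, and 0.293, 0.249 and 0.286. The genotypes were separate under both treatments, with WT higher by 1.41 ± 0.18 (log2) with DMSO (adjusted p = 7.55e-06, edgeR) and by 2.15 ± 0.20 with CMA (adjusted p = 6.38e-08). With CMA the log2 value was -0.25 ± 0.15 for WT (adjusted p = 0.192) and -0.99 ± 0.24 for STINGgt/gt T cells (adjusted p = 0.0619). The latter had an adjusted p of 0.0442 without WT DMSO library 2, 0.0428 without WT DMSO library 3 and 0.0220 by limma on the authors' log2 table. The difference of the effects was 0.74 ± 0.28 (adjusted p = 0.0592), and it passed in 4 of 21 alternatives, with 0.0358 without STINGgt/gt DMSO library 2, 0.0458 by limma-voom, 0.0279 by limma on the authors' log2 table and 0.0452 with at least 10 counts in every library. Markers of other cells were also higher in WT than in STINGgt/gt T cells, 6 of 6 for B cells, 7 of 7 tested for myeloid and dendritic cells and 5 of 6 for CD8 T and natural killer cells with DMSO, against 22.9% of all genes. Their part in the genotype differences of Havcr2, Tigit and Ctla4 was not tested.

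Btla and Cd160 encode receptors that share the ligand HVEM, the product of Tnfrsf14, and they differed in opposite directions. Btla (ENSMUSG00000052013, chr16:45224315-45252895, plus strand) read 230, 229 and 241 CPM in WT with DMSO and 319, 309 and 306 with CMA, with no overlap. The STINGgt/gt libraries gave 221, 211 and 226 CPM, and 216, 246 and 239 with CMA, which overlapped. Btla rose by 0.42 ± 0.05 (log2) in WT (adjusted p = 1.22e-06, edgeR), against 0.09 ± 0.05 in STINGgt/gt T cells (adjusted p = 0.472), and the effects differed by 0.33 (adjusted p = 0.000788). With DMSO the genotypes differed by 0.09 (adjusted p = 0.155) and with CMA by 0.42 (adjusted p = 9.76e-07). B cells also express Btla, and 5 of 6 B cell markers were higher with CMA in WT, Ms4a1 by 1.12 among them, against 33.0% of all genes. The median log2 value of the 6 was 0.38, and Cd79b had means of 32.1 CPM with DMSO and 31.4 CPM with CMA. Between genotypes, 6 of 6 were higher in WT with DMSO (median log2 1.05) and with CMA (1.63), against 22.9% and 37.0% of all genes. The part of these markers in the Btla values was not tested.

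Cd160 (ENSMUSG00000038304, chr3:96798763-96829351, minus strand), a receptor of CD8 T cells and natural killer cells, was scarce. Its counts were 46, 63 and 86 in WT with DMSO and 20, 8 and 24 with CMA. The STINGgt/gt libraries held 101, 78 and 92 counts with DMSO and 109, 139 and 123 with CMA. As CPM, the WT libraries gave 1.68, 2.11 and 2.10 with DMSO, against 0.558, 0.247 and 0.756 with CMA, and each WT CMA library lay below every other library. The log2 fold change in WT was -1.92 ± 0.25, a 3.78-fold lower level (adjusted p = 3.35e-06, edgeR), at rank 295 by fold among 5168 genes that were lower. The STINGgt/gt value was 0.29 ± 0.17 (adjusted p = 0.496). The effects differed by -2.21 ± 0.30 (adjusted p = 1.02e-05), and with CMA WT was 5.89-fold lower than STINGgt/gt T cells (adjusted p = 2.61e-08). With DMSO the difference was -0.35 ± 0.18 (adjusted p = 0.134). Exons of Pdzk1 overlap Cd160 on the opposite strand and held up to 22 counts in a library. Since the strand setting of the counting is not given in the sources used here, these reads and those of Cd160 may be mixed. Of the 6 markers of CD8 T cells and natural killer cells, 5 were lower with CMA in WT, against 37.4% of all genes, among them Klrb1c (2.12 against 0.409 CPM) and Gzma (45.5 against 9.61 CPM), and Cd8b1 was not called. Between genotypes, 5 of the 6 were higher in WT with DMSO, against 22.9% of all genes. With CMA, 3 were higher and 2 lower in WT than in STINGgt/gt T cells, against 37.0% and 36.5% of all genes. The part of these markers in the Cd160 values was not tested.

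The PD-1 ligands encoded by Cd274 (PD-L1) and Pdcd1lg2 (PD-L2) diverged in WT T cells. Cd274 (ENSMUSG00000016496, chr19:29367455-29388095, plus strand) read 132, 133 and 121 CPM in WT with DMSO and 193, 182 and 179 with CMA. The STINGgt/gt values were 152, 153 and 142 CPM, and 148, 149 and 146 with CMA. The WT CMA libraries were the highest, and the WT DMSO libraries the lowest of the 4 groups. Cd274 rose by 0.52 ± 0.05 (log2) in WT (adjusted p = 6.24e-08, edgeR), 1.44-fold. Without functional STING the log2 value was -0.01 (95% confidence interval -0.11 to 0.09, adjusted p = 0.949). The genotype difference changed sign with treatment, from -0.21 with DMSO (adjusted p = 0.00223) to 0.32 with CMA (adjusted p = 1.29e-05), and the difference of the effects was 0.54 (adjusted p = 4.95e-06). An antisense gene, AC119228.1, shares exon positions with Cd274 in the reference annotation and was not among the gene IDs counted.

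Pdcd1lg2 (ENSMUSG00000016498, chr19:29410919-29471157, plus strand) read 29.3, 23.4 and 27.7 CPM in WT with DMSO and 19.8, 19.5 and 17.3 with CMA. The STINGgt/gt values were 32.4, 32.5 and 28.8 CPM, and 33.2, 30.6 and 32.4 with CMA. The WT CMA libraries lay below all others. Pdcd1lg2 fell by 0.51 ± 0.08 (log2) in WT (adjusted p = 3.29e-05, edgeR). The STINGgt/gt value was 0.04 ± 0.08 (adjusted p = 0.885), and the effects differed by -0.54 (adjusted p = 0.000512). The genotype difference was -0.76 with CMA (adjusted p = 1.82e-07) and -0.22 with DMSO (adjusted p = 0.0282). The latter groups overlapped, and the adjusted p was 0.0887 without WT DMSO library 2 and 0.0979 or 0.0927 without STINGgt/gt DMSO library 1 or 2, and 0.0678 when only those 6 libraries were fitted. Per length, Cd274 exceeded Pdcd1lg2 by 2.63 ± 0.40 times (SD, n = 3) in WT with DMSO and 5.31 ± 0.26 times with CMA. The STINGgt/gt ratios were 2.58 ± 0.08 and 2.49 ± 0.12. The WT CMA ratios, 5.07 to 5.59, lay above those of all other libraries, 2.36 to 3.09.

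Cd200 (ENSMUSG00000022661, chr16:45382135-45409053, minus strand), a ligand that restrains myeloid cells through CD200R, lies 129 kb from Btla and was the most even of the 10 genes. It read 351, 351 and 366 CPM in WT with DMSO and 424, 387 and 351 with CMA. The STINGgt/gt values were 377, 361 and 345 CPM, and 368, 394 and 396 with CMA. The groups overlapped between treatments in each genotype and between genotypes with each treatment. CMA gave a log2 value of 0.12 ± 0.06 for WT (adjusted p = 0.0762, edgeR) and 0.10 ± 0.06 for STINGgt/gt T cells (adjusted p = 0.531). The difference of the effects was 0.03, with a 95% confidence interval of -0.15 to 0.20. The WT value passed in 6 of 22 alternatives, DESeq2 (adjusted p = 0.0282) among them, and was 0.00803 without WT CMA library 3 and 0.0319 without WT DMSO library 3. WT and STINGgt/gt T cells differed by -0.02 with DMSO (adjusted p = 0.820) and 0.01 with CMA (adjusted p = 0.935).

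Across genotypes, 4 of the 10 genes were higher in WT than in STINGgt/gt T cells with DMSO (Havcr2, Tigit, Ctla4 and Lag3) and 3 were lower (Pdcd1, Cd274 and Pdcd1lg2), where 22.9% and 19.8% of all genes were called, 42.7% in all. Havcr2 was at least 2-fold higher, against 5.73% of all genes, and none was at least 2-fold lower, against 1.56%. The groups did not overlap for 8 of the 10, against 47.9% of all genes. With CMA, 6 were higher (Lag3, Havcr2, Tigit, Btla, Ctla4 and Cd274) and 3 lower (Cd160, Pdcd1 and Pdcd1lg2), against 37.0% and 36.5% of all genes, 73.5% in all. Lag3, Havcr2 and Tigit were at least 2-fold higher and Cd160 at least 2-fold lower, 4 of 10, where 21.3% of all genes differed by that much in either direction. The groups did not overlap for 9 of the 10, against 78.9% of all genes. Pdcd1 and, with the limits given above for DMSO, Pdcd1lg2 were lower in WT under both treatments, while Havcr2, Tigit, Ctla4 and Lag3 were higher in WT under both.

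Of 17 listed binding partners of these receptors and ligands, 16 passed the filter (Fgl1, a ligand of LAG-3, did not). In WT, CMA raised 7 and lowered 5, no partner passed without functional STING in edgeR's test, and the difference of the effects passed for 7 higher and 5 lower. The shares over all genes were 33.0% higher and 37.4% lower in WT, 1.32% in STINGgt/gt T cells, and 27.2% and 31.6% for the difference. The median log2 value of the list in WT was -0.16, and -0.04 over all genes. Cd80, a ligand of CTLA-4 and CD28 that also binds PD-L1, had the largest change. It read 12.3, 10.9 and 9.75 CPM in WT with DMSO and 135, 127 and 124.9 with CMA, an 11.8-fold higher level (log2 3.57 ± 0.08, adjusted p = 1.43e-15), and 12.1 to 15.2 CPM in STINGgt/gt T cells. Cd86, the other CTLA-4 ligand, rose by 1.26 (adjusted p = 8.89e-11), from 32.9 to 79.4 CPM. CD28 mRNA had means of 728 and 677 CPM in WT (log2 -0.10, adjusted p = 0.148). B cells and myeloid cells also express Cd80 and Cd86, and the part of the marker sums given above in these values was not tested.

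Partners of the other receptors split as well. On the TIGIT axis, the ligand gene Pvr (CD155) rose by 0.50 and the competing receptor Cd96 by 1.34 in WT, while the costimulator Cd226 fell by 0.65 (adjusted p 5.70e-08, 7.33e-12 and 1.54e-06, edgeR). Nectin2 (-0.29) and Nectin3 (-0.21) did not pass, at levels under 3 CPM. On the HVEM axis, Tnfrsf14 (HVEM) rose by 0.38 and Tnfsf14 (LIGHT) fell by 0.97. Among proposed TIM-3 ligands, Lgals9 (galectin-9) rose by 1.20, from 94.6 to 218 CPM, and Hmgb1 fell by 0.49, and Ceacam1 did not pass (-0.28, adjusted p = 0.156). Lgals3, a galectin that binds LAG-3, fell by 1.49, from 34.5 to 12.3 CPM. It was at 8.09 CPM in STINGgt/gt T cells with DMSO. Myeloid cells also express Lgals3. With CMA in WT, the myeloid markers Lyz2, Itgam and Itgax were lower, Cst3 and Flt3 were higher, and Csf1r and Cd14 were not called. The summed CPM of the 8 myeloid and dendritic markers was 55.1 to 58.7 in WT with DMSO and 72.1 to 78.8 with CMA. The part of these markers in the Lgals3 value was not tested. Rgmb, a partner of PD-L2, rose by 0.56 and Cd200r1 fell by 0.62 (adjusted p = 0.0110 and 0.0372), both below 2 CPM. For Cd200r1 the difference between genotypes did not pass (adjusted p = 0.443), and for Cd28 it did (-0.24, adjusted p = 0.0296).

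**Figure D4:**
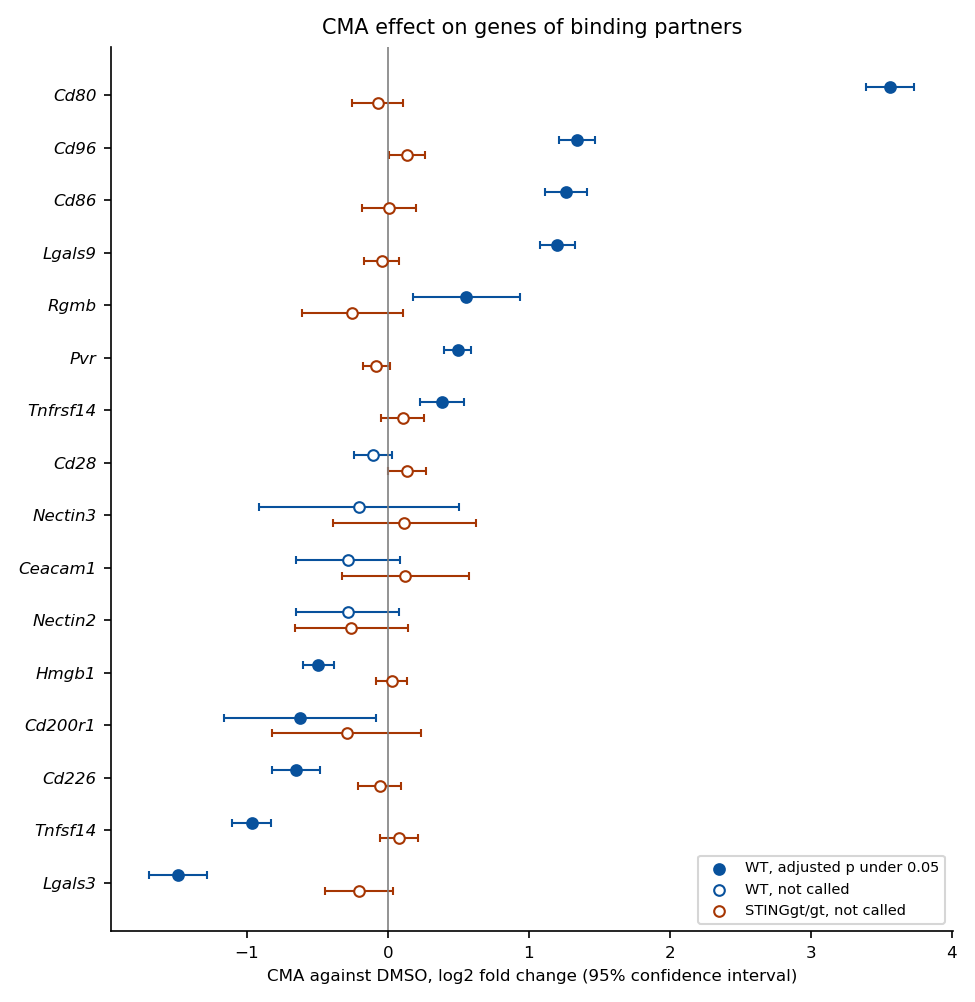
Log2 fold change of CMA against DMSO (horizontal axis) with its 95% confidence interval for the 16 tested binding partners, in WT (blue) and STINGgt/gt T cells (brown). Filled points have an adjusted p under 0.05. In WT, Cd80 stands at 3.57 and Lgals3 at -1.49, and all STINGgt/gt points are open.

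Of 15 genes that act in signalling below these receptors or in their trafficking, 4 were higher and 7 lower with CMA in WT, none passed without functional STING in edgeR's test, and the effects differed for 1 higher and 5 lower. Of all genes, 33.0% were higher and 37.4% lower in WT, 1.32% were called in STINGgt/gt T cells, and the difference gave 27.2% and 31.6%. The median log2 value in WT was -0.07. Dok1, an adaptor that restrains receptor signalling, rose by 1.89 (adjusted p = 1.70e-13, edgeR), from 32.6 to 121 CPM, while its relative Dok2 fell by 0.63. Trat1, an adaptor that holds CTLA-4 at the cell surface, fell by 0.97, and Lrba, which protects CTLA-4 from lysosomal degradation, fell by 0.45. Values were small for the phosphatases used by PD-1 and BTLA. Ptpn11 (SHP-2) rose by 0.17 (adjusted p = 0.00918), and Ptpn6 (SHP-1) was at -0.07 (adjusted p = 0.101). Cmtm6, which stabilizes PD-L1, fell by 0.17 (adjusted p = 0.00661), and its relative Cmtm4 was at 0.08 (adjusted p = 0.292). Adam10 and Adam17, the proteases that shed LAG-3, rose by 0.16 and 0.13 (adjusted p = 0.0436 and 0.0164). The difference between genotypes did not pass for Ptpn11, Cmtm6, Adam10 or Adam17 (adjusted p = 0.676, 0.602, 0.701 and 0.0731).

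Of 23 transcription factors linked to these genes, CMA raised 12 and lowered 5 in WT, raised 4 and lowered none in STINGgt/gt T cells, and the effects differed for 10 higher and 4 lower. All genes gave 33.0% higher and 37.4% lower in WT, 0.398% and 0.920% in STINGgt/gt T cells, and 27.2% and 31.6% for the difference. Their median log2 value was 0.22 for WT and 0.09 for STINGgt/gt T cells. Factors of interferon signalling rose in WT, with Stat2 at 1.98, Irf9 at 1.36 and Irf1 at 0.97, and Jun rose by 1.66 (adjusted p of at most 1.20e-11 for these 4, edgeR). The 4 that rose in STINGgt/gt T cells were Tbx21 (0.30), Irf1 (0.29), Bcl6 (0.34) and Nr4a1 (0.24). Those that fell in WT were Maf (-1.29), Prdm1 (-1.19), Tox2 (-1.11), Nfatc1 (-0.48) and Stat3 (-0.16), and for Stat3 the difference between genotypes did not pass (adjusted p = 0.0800). Tox2 was scarce, at 0.417 CPM in WT with DMSO and 0.201 CPM with CMA (mean count 13.5 over the libraries). Eomes rose by 0.55, Nr4a2 by 0.85 and Nr4a3 by 0.73 in WT, and Tox, a relative of Tox2 known for exhausted T cells, had an adjusted p of 0.988. Tox was lower in WT than in STINGgt/gt T cells with DMSO (log2 -1.50, adjusted p = 1.74e-10).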

How the data were processed

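Naive T cells from WT or STINGgt/gt spleens were expanded, rested and treated with DMSO or 125 μg/ml CMA. The authors made stranded mRNA libraries and deposited raw counts per Ensembl gene. Per the submitters' processing notes the tools were cutadapt 1.3, STAR 2.4.0f1, HTSeq 0.6.1 and RSEM 1.2.16 with build GRCm38. The annotation and strand setting of the counting are not given in the sources used here. The authors also deposited a log2 expression table, used for gene names and positions and for 1 alternative fit. Alignments that were not unique, 27.8% to 30.3% of entries, were on no gene and out of library sizes.

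Counts were fitted with edgeR 4.0.16 in R 4.3.3 (TMM scaling, filterByExpr, 13811 genes, 4 group means, glmQLFTest, Benjamini-Hochberg threshold 0.05). CPM was the count relative to the TMM-scaled library size. RPKM used the union of exons in GENCODE M21. Alternatives were library totals, DESeq2 1.42.0, limma-voom and limma 3.58.1, other filters, only the groups compared, replicate blocks, a 2-fold minimum and leaving out each library. Deviations of equally numbered libraries had correlations of 0.125, 0.148 and 0.168 in STINGgt/gt T cells (genes with a mean count of at least 50). In WT they were 0.0656, 0.235 and 0.279. Unequally numbered libraries were not compared, so these values cannot decide whether the libraries were paired. For the 10 genes the blocked value is given where it alters a call. Blocked values of the other lists were not examined. The number of libraries, 3 per group, limits the precision.

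The 10 genes, the lists of partners, signalling genes, transcription factors and markers, and the tests were chosen with earlier results of these data known. All 10 genes, list members named by size and role, and the 3 genes most like each of the 10 were reported. Motifs were searched in RefSeq promoter windows of build GRCm38.p6.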

Additional observations from a re-analysis of the deposited data

Results flagged for a closer look

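The CMA effect depended on genotype for 8 of the 10 genes, by edgeR's test of the difference itself (adjusted p under 0.05). On the log2 scale, WT minus STINGgt/gt, the difference was 2.07 for Lag3, 0.54 for Cd274, 0.34 for Tigit and 0.33 for Btla. It was -2.21 for Cd160, -0.54 for Pdcd1lg2, -0.53 for Pdcd1 and -0.14 for Ctla4. The Ctla4 call was lost in 16 of 21 alternatives. Of all genes tested, 58.8% had a difference of the effects with an adjusted p under 0.05.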

How the results depend on the processing

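No called value of the 10 genes reversed its direction over the alternatives, while uncalled values near 0 changed sign for Cd274 and Pdcd1lg2 in STINGgt/gt T cells and for Cd200 between genotypes and in the difference of the effects (of 1065 values, 999 stayed on their side of the threshold, 42 lost and 24 gained a call). With a 2-fold minimum, 1 gene was higher and 1 lower in WT, 1 higher and 1 lower in the difference of the effects, 1 higher and 0 lower between genotypes with DMSO, and 3 higher and 1 lower with CMA. In STINGgt/gt T cells 1 gene, Pdcd1, was called higher with DESeq2, limma-voom, the replicate block, a minimum of 10 counts per library, no filter, or a fit of only the groups compared, and 1 was called lower with limma on the authors' log2 table (Havcr2) and with only the groups compared (Tigit). Without single libraries these counts ranged from 0 to 1 higher and 0 to 1 lower. With the minimum of 10 counts per library, 2 genes were lower in the difference of the effects, since Cd160 was not tested and Ctla4 did not pass. The replicate block altered no other count of the 10 genes. Correlations of deviations in equally numbered WT libraries were 0.0656, 0.235 and 0.279. Pairing by the sample names in the labels called 3 genes lower in the difference, without Ctla4. Depth limits Havcr2 and Cd160, at 8 to 139 counts per library.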

Other observations

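The genes whose level followed each checkpoint gene most closely were searched among 11190 genes with a mean count of at least 50, by Pearson's r of log2 CPM over the 12 libraries. These r values describe likeness across libraries that share 4 groups, so they mostly carry the differences between groups. Lag3 was most like Rsad2 (r = 0.999), Ccrl2 (r = 0.998) and Ncf1 (r = 0.998). Cd274 was most like Gm13563 (r = 0.985), Grap (r = 0.981) and Ikbke (r = 0.979), and Btla was most like Tob1 (r = 0.984), Slc30a1 (r = 0.983) and Fos (r = 0.983). Tigit was most like Cdkn2d (r = 0.996), Sdcbp2 (r = 0.995) and H2-Q10 (r = 0.994), and Ctla4 was most like Grb2 (r = 0.994), Nnt (r = 0.989) and Tnfrsf8 (r = 0.989). Pdcd1 was most like Ddx51 (r = 0.982), Zfp202 (r = 0.978) and St6galnac4 (r = 0.974). Pdcd1lg2 was most like Eif2ak4 (r = 0.980), Elk3 (r = 0.979) and Lancl3 (r = 0.978), and Cd160 was most like Cdk2ap1 (r = 0.979), Dcun1d4 (r = 0.977) and Gtl3 (r = 0.975). Havcr2 was most like Dnajc18 (r = 0.985), Kdelr2 (r = 0.983) and Cnp (r = 0.983). Cd200 had no close match, with Dusp28 first (r = 0.808), then Dffb (r = 0.750) and BC024978 (r = 0.739).

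Markers of regulatory T cells and T follicular helper cells, in which Ctla4, Tigit and Pdcd1 are abundant, were also read. The summed CPM of 5 regulatory T cell markers was 2112 to 2267 in WT with DMSO, 2388 to 2491 with CMA and 1512 to 1571 in STINGgt/gt T cells, most of it Il2ra. That of 5 T follicular helper markers was 360 to 389, 375 to 402 and 227 to 251 in the same order. Its members were divided, with Cxcr5 and Bcl6 higher and Icos and Sh2d1a lower with CMA in WT. With DMSO, 4 of these 5 were higher in WT than in STINGgt/gt T cells and 1 was lower, against 22.9% and 19.8% of all genes. Il21, among the higher, stood at 80.8 CPM in WT and 2.46 CPM in STINGgt/gt T cells. The lower marker was Sh2d1a, at 38.0 and 51.7 CPM. Foxp3 differed in none of the 5 comparisons in edgeR's test. The part of these cell types in the values of the checkpoint genes was not tested.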
